A study of Mus musculus with 6 samples.

Results

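Chemoattractant receptors are the surface proteins through which myeloid cells sense formylated bacterial peptides, complement fragments, chemokines and platelet-activating factor. RNA-Seq levels of 9 of them were examined in MLL-AF9 leukemia cells from mice given vehicle or DS-5272, an orally active inhibitor of the p53-MDM2 interaction. The receptors were picked by name as the rows Fpr1, Fpr2, C5ar1, C3ar1, Ccr1, Ccr2, Cxcr2, Cx3cr1 and Ptafr of an expression table with 26082 gene names. All 9 had an entry, and 7 reached the mean of 1 FPKM over the 6 mice that was required for testing. FPKM is the number of sequenced fragments scaled to transcript length and to library size, so that levels can be compared between genes. Between mice they depend on the scaling. The FPKM values summed to 445300 to 501200 in vehicle samples and 499200 to 661200 in DS-5272 samples. The fold change of each receptor was therefore also computed under other scalings. Sums, gaps between the groups and exact tests used the deposited scaling only.

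All 6 mice were of strain C57BL/6J and carried leukemia made by retroviral transfer of the MLL-AF9 fusion gene into c-Kit+ bone marrow progenitors, followed by repeated transplantation. Oral DS-5272 at 80 mg/kg or vehicle was given 24 h before the marrow leukemia cells were collected, and each group had 3 mice, numbered 1 to 3. The age of the mice was not given in the sources used here. The fusion gene was driven by a retroviral vector, the leukemia descended from serially transplanted cells, and the recipients kept their own immune cells.

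These receptors span the membrane 7 times and couple mainly to Gi proteins, whose released beta-gamma subunits activate phospholipase C-beta and PI3K-gamma and steer migration through Rac. Kinases of the GRK family and arrestins then switch the receptors off. Fpr1, Fpr2, C5ar1, Cxcr2 and Ptafr are known from neutrophils, Ccr2 from classical monocytes, Cx3cr1 from patrolling monocytes and tissue macrophages, and Ccr1 and C3ar1 from several myeloid cells.

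The 7 tested receptors were all higher in DS-5272-treated MLL-AF9 cells, by 3.42 to 21.6 times in mean FPKM. In limma on log2(FPKM + 1), with Benjamini-Hochberg adjustment over 11130 genes, all 7 passed an adjusted p of 0.05, and none was lower. Of all tested genes, 24.2% passed as higher and 22% as lower, and the median log2 fold change was 0.04 (quartiles -0.34 and 0.46) against a median of 2.52 for the 7 receptors. A log2 rise of at least 1 was met by all 7 and by 8.79% of tested genes. Every DS-5272 mouse was above every vehicle mouse for 8 of the 9 receptors, Cx3cr1 being the exception, and for 24.9% of the 18149 genes above 0. Over tested genes alone this share was 32.1%, against 7 of 7 receptors. In a bulk sample, a change in the share of cells that express a receptor and a change in its RNA per cell cannot be told apart.

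The upstream sequences of the genes are given first for Fpr1 and Fpr2, which lie head to head on opposite strands of chromosome 17, and for C3ar1, the only receptor promoter with an AP-1 letter match. Each runs 5′ to 3′ on the strand of its gene, from 250 bases before to 50 bases after the RefSeq start on GRCm38.p6. Capitals mark the matches to the motifs described next.
Fpr1, chr17:17883890-17884189, minus strand: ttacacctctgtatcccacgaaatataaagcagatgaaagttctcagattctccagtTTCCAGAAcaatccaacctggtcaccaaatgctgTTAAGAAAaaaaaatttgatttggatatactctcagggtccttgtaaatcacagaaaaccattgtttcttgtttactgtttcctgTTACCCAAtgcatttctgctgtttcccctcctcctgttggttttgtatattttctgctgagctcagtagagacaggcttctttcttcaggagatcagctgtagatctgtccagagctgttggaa
Fpr2, chr17:17887574-17887873, plus strand: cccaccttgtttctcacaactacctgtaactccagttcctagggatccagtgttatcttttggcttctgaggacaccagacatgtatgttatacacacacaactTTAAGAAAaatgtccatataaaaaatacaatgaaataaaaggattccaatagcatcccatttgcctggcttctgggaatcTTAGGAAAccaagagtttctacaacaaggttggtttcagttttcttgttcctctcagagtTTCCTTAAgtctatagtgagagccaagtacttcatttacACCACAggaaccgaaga
C3ar1, chr6:122856108-122856407, minus strand: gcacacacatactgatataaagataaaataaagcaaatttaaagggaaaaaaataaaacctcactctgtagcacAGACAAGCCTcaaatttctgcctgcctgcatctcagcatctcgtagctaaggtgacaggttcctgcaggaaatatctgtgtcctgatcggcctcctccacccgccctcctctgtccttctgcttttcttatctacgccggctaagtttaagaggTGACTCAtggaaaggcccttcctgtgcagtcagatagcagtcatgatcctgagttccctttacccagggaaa

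The motifs were searched on both strands of 32851 mouse promoters of this length, and matches of different motifs were allowed to overlap. The searched set left out a chromosome that carries none of the 9 receptors, so the shares below are not genome-wide. The C/EBP letters TTNNGNAA were found in 40.7% of the searched promoters. They were also in 5 of the 9 receptor promoters (Fpr1, Fpr2, C5ar1, Ccr1 and Ccr2), with 3 matches in each of the sequences of Fpr1 and Fpr2. The RUNX letters TGTGGT were in 16.8% of promoters and in those of Fpr2, C5ar1, Ccr1 and Cx3cr1. TGANTCA, the AP-1 letters, occurred in 7.81% of promoters and in that of C3ar1, between 22 and 16 bases before the start. A p53 half-site was matched in 8.36% of promoters and in those of C3ar1 and Cx3cr1, the 2 receptors under the expression filter. The PU.1 letters GAGGAAG (13.6% of promoters), an NF-kB motif (4.51%) and an ISRE motif (3.44%) were not in any of the 9 windows. These matches describe letters in short windows and do not show binding.

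**Figure D1:**
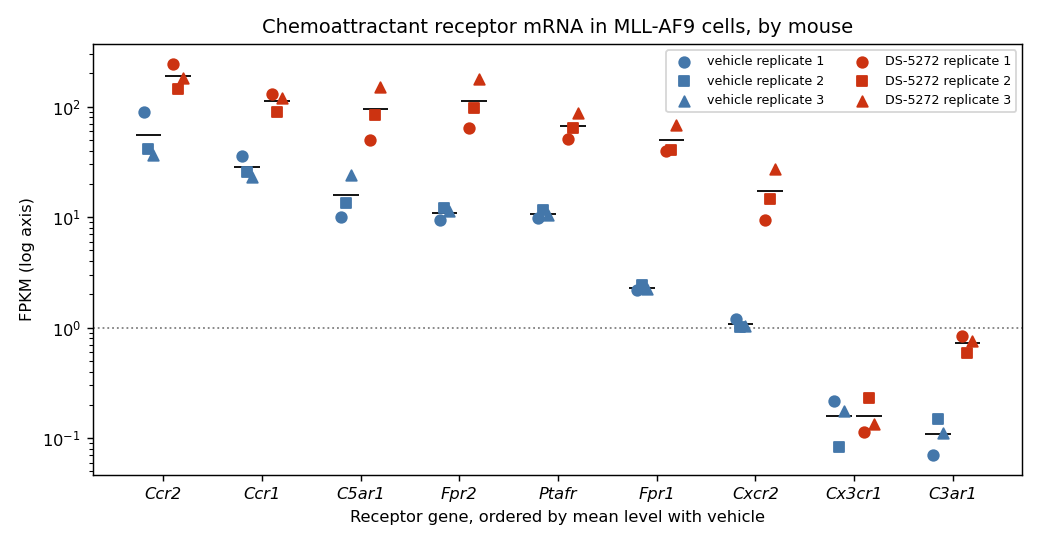
FPKM of the 9 receptors in each mouse on a logarithmic axis, with vehicle mice in blue, DS-5272 mice in red, a symbol for each replicate number and group means as horizontal lines. The points of the 2 groups stand apart for all receptors but Cx3cr1, and C3ar1 and Cx3cr1 lie below 1 FPKM throughout.

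Fpr1 (chr17:17876471-17883940, minus strand) binds formylated peptides of bacteria and mitochondria with high affinity. It stood at 2.2, 2.42 and 2.25 FPKM in vehicle mice 1, 2 and 3, against 39.9, 40.4 and 68.3 FPKM in the DS-5272 mice of these numbers. The vehicle values lay within 1.1 times of each other, and the lowest DS-5272 value was 16.5 times the highest vehicle value. Mean FPKM went from 2.29 ± 0.114 to 49.5 ± 16.3 (SD, n = 3 each), and the log2 fold change was 3.90 (SE 0.21, adjusted p = 0.0006 by limma). This was the largest rise among the receptors and ranked 14 among the 11130 tested genes. Fpr1 was estimated to rest on 103 to 116 fragments per vehicle library and 1395 to 1949 per DS-5272 library.

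Fpr2 (chr17:17887824-17893952, plus strand) responds to a broad range of peptides and lipids, including annexin A1 and serum amyloid A. Its level was 9.48, 12.0 and 11.3 FPKM in the vehicle mice and 63.8, 96.1 and 179 FPKM in the DS-5272 mice. The groups did not overlap, and within the DS-5272 group mouse 3 held 2.81 times the level of mouse 1. The mean changed from 10.9 ± 1.3 to 113 ± 59.4 FPKM (SD, n = 3 each), with a log2 fold change of 3.13 (SE 0.35, adjusted p = 0.002 by limma). Of the 100-base windows of Fpr2 transcripts, 12.3% also occur in Gm5966, which has no row of its own in the table. In the GENCODE annotation, exons of Fpr3 also overlap those of Fpr2 on the same strand, whereas the RefSeq gene Fpr3 starts beyond the end of Fpr2. Gm5966 was the only gene found to share 100-base windows with Fpr2.

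C5ar1 (chr7:16246743-16259540, minus strand) is the receptor of the complement fragment C5a. It was measured at 9.96, 13.4 and 24.1 FPKM with vehicle and at 49.8, 83.7 and 150 FPKM with DS-5272. Both groups were spread widely, by 2.42 and 3.02 times, yet the lowest DS-5272 value was 2.06 times the highest vehicle value. The log2 fold change was 2.45 (SE 0.45, adjusted p = 0.007 by limma), for means of 15.8 ± 7.38 and 94.6 ± 51.1 FPKM (SD, n = 3 each). Between mice of the same number, the ratio of DS-5272 to vehicle was 5 for number 1, 6.25 for number 2 and 6.23 for number 3. With the replicate number as a block, the SE fell to 0.11 and the adjusted p to 0.00032 by limma. The labels do not say that mice of the same number are paired, so the block is a hint from the data only.

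C3ar1 (chr6:122847138-122856161, minus strand), the receptor of the fragment C3a, had the lowest mean of the receptors in vehicle mice, where its values overlapped those of Cx3cr1. Its values were 0.0702, 0.149 and 0.112 FPKM with vehicle and 0.848, 0.596 and 0.758 FPKM with DS-5272, so that all 6 mice were under 1 FPKM. These levels correspond to an estimated 13.6 to 23.2 fragments per vehicle library and 75.2 to 122 per DS-5272 library. The means were 0.110 ± 0.0393 and 0.734 ± 0.128 FPKM (SD, n = 3 each), a ratio of 6.65, while the difference on the log2(FPKM + 1) scale was 0.64. C3ar1 was outside the main test, and an exact two-sided permutation test gave p = 0.1, the smallest value that 3 against 3 mice allow. In a limma fit of all 18149 genes above 0, its log2 fold change of 0.64 had an SE of 0.06 and an adjusted p of 0.0045. That fit called 14.6% of genes higher and 13.7% lower, and 8 receptors higher.

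Ccr1 (chr9:123962124-123968692, minus strand) binds Ccl3, Ccl5, Ccl6 and Ccl9. It was at 35.7, 25.8 and 23.2 FPKM in vehicle mice, against 129, 89.5 and 119 FPKM in DS-5272 mice. The lowest DS-5272 value was 2.51 times the highest vehicle value, and the DS-5272 mice differed among themselves by 1.44 times. Its mean rose from 28.2 ± 6.61 to 113 ± 20.5 FPKM (SD, n = 3 each), with a log2 fold change of 1.96 (SE 0.20, adjusted p = 0.0016 by limma).

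Ccr2 (chr9:124101950-124113557, plus strand), the receptor of Ccl2, Ccl7 and Ccl12, draws monocytes out of the bone marrow. It read 90.2, 41.0 and 36.5 FPKM in vehicle mice and 245, 145 and 183 FPKM in DS-5272 mice. Mouse 1 was the highest of each group, and the gap between the groups was the narrowest of the 7 tested receptors, at 1.6 times. The means were 55.9 ± 29.8 and 191 ± 50.5 FPKM (SD, n = 3 each), for a log2 fold change of 1.84 (SE 0.36, adjusted p = 0.0086 by limma), the smallest rise of the 7.

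Cxcr2 (chr1:74153989-74161246, plus strand), the receptor of Cxcl1, Cxcl2, Cxcl3 and Cxcl5, releases mature neutrophils from the marrow. Vehicle mice had 1.19, 1.02 and 1.04 FPKM and DS-5272 mice 9.41, 14.7 and 27.2 FPKM. Vehicle values were nearly equal, whereas DS-5272 values spanned 2.89 times, and the lowest of them was 7.9 times the highest vehicle value. Its mean rose from 1.08 ± 0.0948 to 17.1 ± 9.14 FPKM (SD, n = 3 each), a ratio of 15.8, and its log2 fold change was 3.0 (SE 0.34, adjusted p = 0.0021 by limma). With a pseudocount of 0.1 in place of 1, the log2 fold change was 3.73.

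Cx3cr1 (chr9:119901616-120069879, minus strand), the fractalkine receptor, was the only receptor whose groups overlapped. Its values were 0.218, 0.0825 and 0.178 FPKM with vehicle and 0.114, 0.232 and 0.135 FPKM with DS-5272. The means of 0.159 ± 0.0696 and 0.16 ± 0.0631 FPKM (SD, n = 3 each) gave p = 1 in an exact two-sided permutation test. About 13.5 to 44.1 fragments per library were behind these values, and depth limits their precision. The gene overlaps exons of Gm33858 on the other strand.

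Ptafr (chr4:132564067-132582683, plus strand) is the receptor of platelet-activating factor, a phospholipid that primes neutrophils and macrophages. It stood at 9.74, 11.6 and 10.5 FPKM in the vehicle mice and at 50.7, 63.8 and 87.3 FPKM in the DS-5272 mice. The groups were separated by 4.37 times at their nearest values. The log2 fold change was 2.52 (SE 0.20, adjusted p = 0.00074 by limma), from means of 10.6 ± 0.935 and 67.3 ± 18.6 FPKM (SD, n = 3 each).

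**Figure D2:**
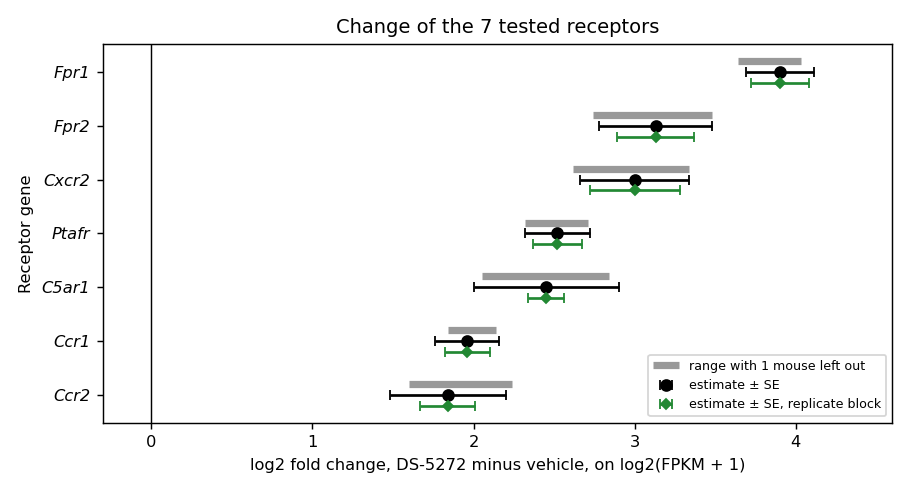
Log2 fold change of each tested receptor (DS-5272 over vehicle, on log2(FPKM + 1)) with its standard error (black points), the same with the replicate block (green) and the range with each mouse left out in turn (grey bars). All values lie above 0, and the estimates run from 1.84 for Ccr2 to 3.90 for Fpr1.

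Each of the 7 tested receptors passed the threshold under all 15 alternative analyses, and the highest adjusted p was 0.037, for Ccr2 without vehicle mouse 2. With the replicate number as a block, all 7 passed again, beside 30.3% of tested genes called higher and 24.9% called lower. Without both mice numbered 1, an alternative chosen after seeing the data, the count was also 7, beside 22.4% of genes higher and 14.8% lower. Matched by number, all 7 were higher in the treated mouse of each of 3 pairs, as were 41.8% of tested genes. For these 7 any matching would give that, because every DS-5272 mouse was above every vehicle mouse, so it adds no support. For Fpr1 the pair ratios were 18.2, 16.7 and 30.3, for Cxcr2 7.9, 14.4 and 26.2, and for Ccr2 2.71, 3.53 and 5.02.

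As a sum, the 9 receptors reached 159, 107 and 109 FPKM in vehicle mice and 588, 534 and 816 FPKM in DS-5272 mice, or 125 ± 29.2 and 646 ± 149 FPKM (SD, n = 3 each). Ccr2 was the most abundant receptor in every mouse, with Fpr1 at rank 6 and Cxcr2 at rank 7. Ccr2 made up 42.8% ± 12.4 of the sum with vehicle and 30.4% ± 9.99 with DS-5272, and Ccr1 22.6% ± 1.38 and 17.8% ± 3.74. The share of Fpr1 was 1.38%, 2.25% and 2.06% in vehicle mice and 6.78%, 7.56% and 8.38% in DS-5272 mice, without overlap. Fpr2 took 9.17% ± 2.8 and 16.9% ± 5.62, and Cxcr2 0.883% ± 0.115 and 2.56% ± 0.883 (SD, n = 3 each). The shares of C5ar1, at 13.6% ± 7.96 and 14.2% ± 5.14, and of Ptafr, at 8.85% ± 2.43 and 10.4% ± 1.68, differed by less than their SDs.

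**Figure D3:**
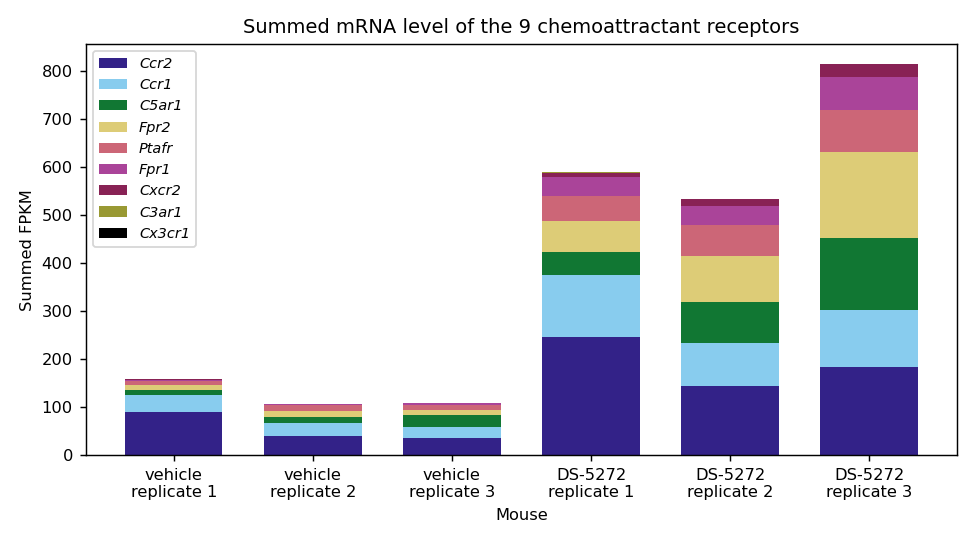
Summed FPKM of the 9 receptors in each mouse, stacked by receptor, on a linear axis from 0. Every DS-5272 bar (534 to 816) is taller than every vehicle bar (107 to 159), and Ccr2 is the largest segment in each.

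In order of mean level, vehicle mice had Ccr2, Ccr1, C5ar1, Fpr2, Ptafr, Fpr1, Cxcr2, Cx3cr1 and C3ar1. The values of Ccr1, C5ar1, Fpr2 and Ptafr overlapped from neighbour to neighbour, as did those of Cx3cr1 and C3ar1. With DS-5272 the order was Ccr2, Fpr2, Ccr1, C5ar1, Ptafr, Fpr1, Cxcr2, C3ar1 and Cx3cr1, and each neighbouring pair among the first 6 overlapped. In this order Fpr2 had rank 5, 4 and 4 in the vehicle mice and rank 3, 2 and 2 in the DS-5272 mice.

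The mice did not deviate from their group means in the same way for all receptors. On the log2(FPKM + 1) scale, Fpr2, C5ar1 and Cxcr2 were lowest in DS-5272 mouse 1, at -0.69, -0.77 and -0.68 from the group mean, and highest in DS-5272 mouse 3, at 0.79, 0.80 and 0.76. Ccr1 and Ccr2 instead were highest in mouse 1 of both groups, with deviations of 0.35 and 0.80 in vehicle mouse 1 and of 0.21 and 0.39 in DS-5272 mouse 1. Fpr1 (-0.26 to 0.50) and Ptafr (-0.37 to 0.41) had narrower spreads among the DS-5272 mice, also with mouse 1 lowest and mouse 3 highest.

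**Figure D4:**
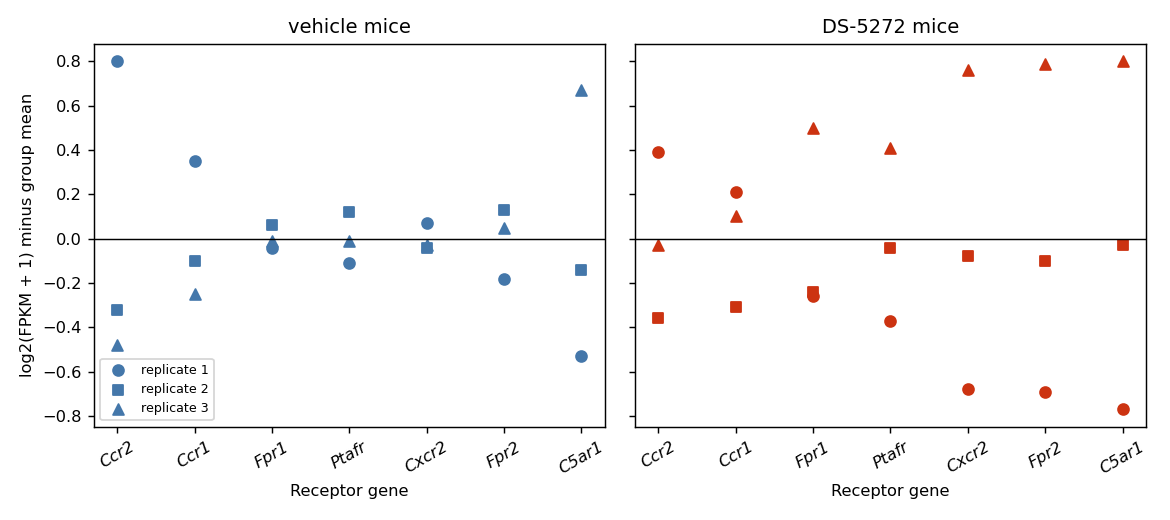
Deviation of each mouse from its group mean, in log2(FPKM + 1), for the 7 tested receptors. DS-5272 mouse 1 is lowest for Fpr2, C5ar1 and Cxcr2 (-0.69, -0.77 and -0.68) but above its group mean for Ccr1 and Ccr2 (0.21 and 0.39).

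Receptors of the same ligand class were compared within mice as log2 ratios of FPKM + 1, with exact two-sided permutation tests adjusted over the 3 pairs. The ratio of Fpr1 to Fpr2 was -1.85 ± 0.12 with vehicle and -1.09 ± 0.38 with DS-5272 (SD, n = 3 each), a difference of 0.76 (exact permutation p = 0.1, adjusted 0.15). The values did not overlap, but no smaller p is possible with 3 against 3 mice. For Ccr1 against Ccr2 the ratios of -0.86 ± 0.39 and -0.74 ± 0.16 differed by 0.12 (exact permutation p = 0.8, adjusted 0.8; n = 3 each), less than their spread, and without vehicle mouse 1 the difference was -0.10. The ratio of C5ar1 to C3ar1 differed by 1.81 (exact permutation p = 0.1, adjusted 0.15; n = 3 each), but without a pseudocount this turned to -0.25, since C3ar1 lies far below 1 FPKM.

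The gene whose centred profile over the 6 mice lay nearest to each receptor was searched among the tested genes. Entries that join several genes were left out, and the measure was a root-mean-square distance in log2(FPKM + 1). For Fpr2 it was another receptor of the set, Cxcr2, at 0.15. Fpr1 lay nearest to Bst1, a surface ADP-ribosyl cyclase, at 0.15, and Ccr2 to Lgals3bp, a secreted galectin-binding protein, at 0.12. The nearest genes of Ptafr (Gm15448, 0.06), Ccr1 (A630033H20Rik, 0.08), Cxcr2 (Gm5150, 0.11) and C5ar1 (Gm9733, 0.24) carry provisional names. The 6 points of each profile share the 2 treatment groups, so these distances are descriptions only.

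The formyl peptide and the chemokine receptor pairs are neighbours in the genome. By RefSeq positions, Fpr1 and Fpr2 are separated by 3884 bases, and the next members of that cluster, Fpr3 and Fpr-rs4, were listed at 0 in all mice. On chromosome 9, 133225 bases lie between Ccr1 and Ccr2, also by RefSeq positions. The genes Ccr9, Cxcr6, Xcr1 and Ccr1l1 of this chemokine receptor cluster stayed under 1 FPKM in every mouse. In the same stretch, Fyco1, an autophagy adaptor, rose by 1.02 on the log2 scale (SE 0.19, adjusted p = 0.0079 by limma), while Lztfl1, a ciliary trafficking protein, had a log2 fold change of -0.06 (SE 0.10, adjusted p = 0.64).

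Among 33 other chemoattractant receptors, 9 were tested, of which 5 rose, Gpr35 and S1pr4 among them, and none fell. Their median log2 fold change was 1.10, and of all tested genes 24.2% rose and 22% fell. Gpr35, a G protein-coupled receptor of leukocytes and gut, and S1pr4, a sphingosine 1-phosphate receptor of leukocytes, had log2 fold changes of 2.28 (SE 0.13, adjusted p = 0.0006 by limma) and 1.39 (SE 0.33, adjusted p = 0.016). Cxcr4, which retains cells in the marrow, was at 131, 103 and 79.9 FPKM with vehicle and 51.3, 62.6 and 96.8 FPKM with DS-5272. Those groups overlapped, and its log2 fold change was -0.59 (SE 0.27, adjusted p = 0.11 by limma). Cxcr4 passed as lower when the libraries were scaled to a common total (TPM), under quantile normalization and without DS-5272 mouse 3. Of the 33 receptors, 22 were under 1 FPKM in every mouse, 6 of them at 0. Ccr3 and Cmklr1, named after their values were seen, stood at 2.12 and 1.87 FPKM in DS-5272 mouse 1 and at 0.181 FPKM or less in all other mice.

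Of 23 ligands and ligand-synthesis genes, 15 were tested, 7 rose and 1 fell, with a median log2 fold change of 1.81, beside 24.2% and 22% of all tested genes. With the replicate block 13 rose, beside 30.3% of all genes. Ccl6, a ligand of Ccr1, rose from 3.05, 4.82 and 4.40 FPKM to 52.2, 68.7 and 105 FPKM (log2 fold change 3.86, SE 0.27, adjusted p = 0.00068 by limma). Ccl4, a chemokine that draws monocytes, had a log2 fold change of 3.78 (SE 0.59). The Ccr2 ligand Ccl2 was at 0.264, 2.65 and 4.85 FPKM with vehicle and at 12.7, 66.1 and 65.2 FPKM with DS-5272. Mouse 1 was the lowest of each group, the opposite of Ccr2 itself. The log2 fold change of Ccl2, 3.71 (SE 0.78, adjusted p = 0.01 by limma), was 3.09 without vehicle mouse 1 and 4.47 without DS-5272 mouse 1. Lpcat1, an acyltransferase of platelet-activating factor synthesis in lung, fell from 10.1, 11.5 and 12.4 FPKM to 7.13, 5.31 and 5.66 FPKM (log2 fold change -0.81, SE 0.14, adjusted p = 0.0055 by limma). Its inflammatory counterpart Lpcat2 was among the 7 that rose, with a log2 fold change of 1.89 (SE 0.33). Cxcl2, a ligand of Cxcr2, ranged from 8.38 to 343 FPKM with vehicle and from 145 to 2529 FPKM with DS-5272, and its log2 fold change of 3.06 had an adjusted p of 0.16 by limma (0.0013 with the replicate block). It was 1.39 without vehicle mouse 1 and 4.29 without DS-5272 mouse 1.

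Of 23 tested genes of receptor signalling, 17 rose and none fell, with a median log2 fold change of 0.64, against 24.2% and 22% of all tested genes and their median of 0.04. Among those that rose were the Src-family kinases Fgr, from 8.86, 17.3 and 21.6 FPKM to 75.2, 132 and 176 FPKM (log2 fold change 2.93, SE 0.40), and Lyn (1.60, SE 0.16). Without vehicle mouse 2, the count of 17 was 10, while that of all genes called higher was 1623 in place of 2697. Among 13 tested genes of receptor desensitisation, 11 rose and none fell, with a median of 0.72, beside the same shares of all genes. Here the largest log2 fold changes belonged to Rgs1 (2.96, SE 0.63), Grk5 (2.35, SE 0.27) and Rgs3 (2.2, SE 0.21), that is 1 receptor kinase and 2 proteins that speed the GTPase of G-alpha subunits. Rgs1 was 3.55 without DS-5272 mouse 1. Leaving out vehicle mouse 1 or vehicle mouse 2 left 7 of these 11 calls.

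**Figure D5:**
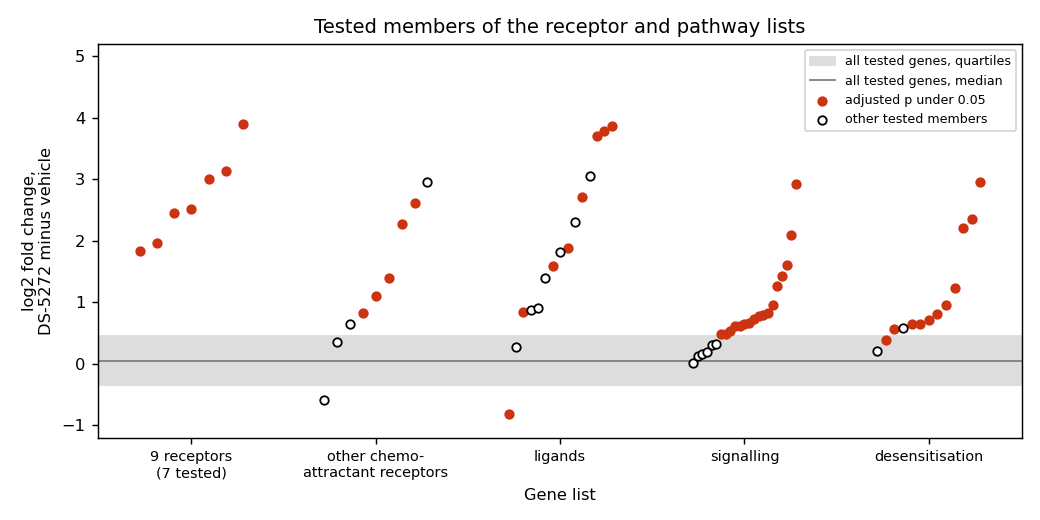
Log2 fold change of every tested gene of the receptor set and of 4 related lists, 1 point per gene, filled where the adjusted p was under 0.05. The grey band and line are the quartiles (-0.34 and 0.46) and the median (0.04) of all tested genes, and the receptor median of 2.52 is above those of the ligands (1.81), other receptors (1.10), desensitisation genes (0.72) and signalling genes (0.64).

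Markers were read beside these results. The leukemia genes Hoxa9 (in a joined entry with Hoxa10 and Mir196b, 204 to 290 FPKM) and Meis1 (66.1 to 110 FPKM) were present in all mice. Kit, a progenitor marker, was at 30.5 to 45.0 FPKM with vehicle and fell to between 4.94 and 12.1 FPKM (log2 fold change -1.96, SE 0.30, adjusted p = 0.0046 by limma), and Itgam, the CD11b integrin, rose by 2.1 on the log2 scale (SE 0.28, adjusted p = 0.0031). The summed level of 10 neutrophil markers, led by S100a8, S100a9 and Lcn2, was 438, 1794 and 2332 FPKM in vehicle mice and 4901, 12391 and 20819 FPKM in DS-5272 mice, and 8 of the 10 rose. Mouse 1 had the lowest neutrophil sum of both groups, and it was also lowest in both groups for Fpr1, Fpr2, C5ar1 and Ptafr. Cxcr2 was lowest in DS-5272 mouse 1 but highest in vehicle mouse 1, and Ccr1 and Ccr2 were highest in mouse 1 of both groups. Among vehicle mice, Fpr1, Cxcr2, Ptafr and Fpr2 spanned 1.1, 1.17, 1.19 and 1.26 times. Ccr1, C5ar1 and Ccr2 spanned 1.54, 2.42 and 2.47 times. Monocyte markers, of which Chil3 had the highest mean, summed to 2267 to 4262 FPKM with vehicle and to 3998 to 7839 FPKM with DS-5272, and 6 of 10 rose. Chil3 itself did not pass (log2 fold change 1.04, adjusted p = 0.2 by limma). Ly6c2 (-0.39) and F13a1 (-0.27) pointed down without passing. Macrophage markers, led by Vcam1, gave 66 to 118 FPKM with vehicle and 460, 205 and 267 FPKM with DS-5272, and 5 of 10 rose. Vcam1 was not among those 5 (adjusted p = 0.13 by limma). Beside these counts, 24.2% of all tested genes rose and 22% fell. Erythroid markers, led by Hba-a1, gave 2.54 to 4.71 FPKM with vehicle and 147, 27.5 and 12.8 FPKM with DS-5272. The part of these markers in the receptor levels was not tested.

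Sums were low in all mice for markers of NK cells (Gzma highest, 0.798 to 1.7 FPKM with vehicle and 2.97 to 5.12 with DS-5272), T cells (Lat highest, 4.47 to 5.08 and 5.36 to 7.55), B cells (Cd79b highest, 5.78 to 8.26 and 5.38 to 9.04) and megakaryocytes (Itgb3 highest, 6.74 to 8.08 and 9.74 to 10.6). Ncr1 and Cd3e, which define NK and T cells, were at most 0.354 and 0.313 FPKM. The stroma and endothelium list, at 29.1 to 60.1 and 73.7 to 113 FPKM, consisted mostly of Pecam1, which leukocytes also express. All DS-5272 libraries were shallower than the vehicle libraries, with estimated depths of 25.4 to 35.2 M and 38.0 to 47.1 M fragments (M for mega).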

How the data were processed

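MLL-AF9 leukemia cells from 3 vehicle and 3 DS-5272 mice were compared, grouped by the treatment in the labels. Each sample was taken as 1 mouse, which the labels do not state outright, so p-values measure the spread between these samples. The authors prepared strand-specific paired-end libraries, trimmed the reads (cutadapt 1.8.1), aligned them to GRCm38 (TopHat2 2.1.1) and deposited FPKM values per gene (Cufflinks 2.2.1, versions from the submitters' processing notes). FPKM is already divided by transcript length and library size, and whether counting used strand is not given in the sources used here. Of 26632 rows, 435 gene names on several rows were summed and 433 rows join several genes.

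Genes averaging 1 FPKM or more over the 6 mice, 11130 in all, were tested with limma 3.58.1 in R 4.3.3 (lmFit, eBayes with trend, two-sided) on log2(FPKM + 1). Fold changes on this scale understate low genes. P-values were adjusted by Benjamini-Hochberg over all tested genes, with a threshold of 0.05. The test was tried on simulated data. Exact permutation tests used scipy 1.17.1, with numpy 2.4.6 and pandas 2.3.3 in Python 3.11.15, and matplotlib 3.10.9 drew the plots.

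The members and lists were chosen with earlier results of these data known. Of 203 list genes, 184 were found by current symbol and 11 by an older one, 5 lay in joined entries and 3 had none. Named were all 9 receptors, the 3 largest rises and falls past the threshold in the ligand, other receptor, signalling and desensitisation lists with Cxcr4, the nearest gene of each tested receptor, and the highest marker of each list with Hoxa9, Meis1, Kit and Itgam. Some genes that the rule names are not reported here. Genes named beyond this rule were chosen after their values were seen.

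Deviations from the group means over tested genes correlated between same-numbered mice at 0.66, 0.21 and 0.43, all above 0.1, and between mice of different numbers at -0.58 to 0.34 (vehicle 2 correlated more with DS-5272 3 than with DS-5272 2). By the limit of 0.1 for every same-numbered pair, the numbers were taken to pair the samples, as a hint from the data only. Vehicle 2 with DS-5272 3 (0.34) and vehicle 3 with DS-5272 2 (0.18) also exceeded that limit. It therefore does not single out the same-numbered matching of mice 2 and 3. Depth was estimated from the FPKM step of 1 fragment in low genes with 1 transcript of over 1500 nt, and such estimates give a scale only. The printed gene positions come from GENCODE vM21. Promoters and the gaps between genes come from RefSeq, where all 9 receptors matched by symbol. Alternatives were the pseudocount, the filter, 3 other scalings, the replicate block, eBayes without trend and leaving out each mouse.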

Additional observations from a re-analysis of the deposited data

How the results depend on the processing

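The 7 receptors called higher numbered 7 in each setting but the fit without a filter, which added C3ar1 for 8. With the replicate block the receptor count was again 7, ligands called higher were 13 in place of 7, and the counts of the other receptor, signalling and desensitisation lists moved by less than 1.5 times. Scaling to a common total (TPM) moved the median log2 fold change of all genes from 0.04 to -0.19 and the split of higher and lower calls from 2697 and 2451 to 1713 and 3555. The split was 2539 and 2808 with a common upper quartile and 2418 and 3135 with quantile normalization. TPM and quantile scaling each called 1 other receptor lower, Cxcr4, against 0, and TPM called 1 signalling gene lower, Gnai3, against 0. A mean of at least 5 FPKM, which tests fewer genes, left 2 of 5 other receptors. Requiring a log2 fold change of at least 1 left 978 genes higher and 621 lower, 5 signalling and 4 desensitisation genes higher, and 0 ligands lower. Leaving out 1 mouse at a time gave 1623 to 2934 genes higher and 1389 to 2432 lower, with the lowest values without vehicle mouse 2 (1492 lower without vehicle mouse 3). It gave 7 receptors throughout, 5 to 9 ligands higher, 1 lower, 4 to 6 other receptors higher and 0 to 1 lower, 10 to 18 signalling genes and 7 to 11 desensitisation genes. A pseudocount of 0.1 gave 1.99 for C3ar1, 1.10 for the difference between Fpr1 and Fpr2, and 0.53 for C5ar1 and C3ar1. Without a pseudocount, chosen after seeing the data, these differences were 1.14 and -0.25. Leaving out a mouse gave 0.55 to 0.91, 1.42 to 2.24 and, for Ccr1 and Ccr2, -0.10 to 0.24. Except where the construction shows it, the cause was not tested.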
